A study of Mus musculus with 6 samples.

Results

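Genes that assemble, disassemble and anchor actin filaments outside the sarcomere were examined in the soleus of mice lacking the G protein subunit gene Gna13 in muscle. The list held 53 gene symbols, chosen by name for their place in actin turnover, the nonmuscle cytoskeleton and cell adhesion. The choice was made with earlier results of these data known, so counts set beside those of all genes describe the list and do not test it. Of the 53 symbols 48 were measured, of 23152 genes in all. A gene counted as measured where at least 1 row of the array table was annotated to it alone, and its value on an array was the mean log2 value of those rows. The 48 genes had 805 such rows, called probe sets, between 1 for Cfl1 and 56 for Tln2. Arpc1b occurred only in 5 rows shared with other symbols and Arpc3 in none that could be used. Diaph1, Diaph2 and Diaph3 stand in the array annotation under the older symbols Diap1, Diap2 and Diap3, which were also on the list and are used below.

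MKO mice carried Ckmm-Cre, a Cre recombinase driven by the muscle creatine kinase promoter, together with Gna13 alleles flanked by loxP sites (Gna13 flox/flox). WT mice carried the same floxed alleles and no Cre. All were males of 18 weeks that had fasted for 14 h, each group had 3 animals, and RNA of 1 soleus sample per animal was hybridised to 1 Affymetrix Mouse Gene 2.0 ST array. Ckmm-Cre acts in muscle fibres, and the fibroblasts, vessel cells and immune cells of the same tissue keep their Gna13 alleles, so a whole-muscle value mixes cells with and without the deletion. In such samples fewer cells of a type and less RNA per cell cannot be told apart.

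Actin filaments grow at one end from profilin-bound monomers, are started by the Arp2/3 complex or by formins, are extended under Ena/VASP proteins, and are cut by cofilin and its partners, which returns monomers to the pool. In most cell types the G13 protein activates exchange factors of the small GTPase RhoA. RhoA switches on formins of the Diaphanous family and, through the kinase ROCK, activates nonmuscle myosin and the LIM kinases that inhibit cofilin. In muscle fibres these proteins work mainly at the membrane, at Z-discs and during filament renewal, and the fibroblasts, endothelial cells and other mononuclear cells of the tissue depend on them throughout.

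No gene on the list passed the test for a difference between MKO and WT. With limma and Benjamini-Hochberg adjustment over all genes, 0 of the 48 had an adjusted p under 0.05, and 0.0% of all genes did. The lowest adjusted p on the list was 0.9504, for Wdr1. At an unadjusted p under 0.05, 4 genes were lower in MKO, namely Wdr1, Evl, Myh10 and Enah, and 0 were higher, where 2.41% of all genes were lower and 1.92% higher by that rule. The 3 MKO arrays all lay below the 3 WT arrays for 5 genes (Wdr1, Evl, Myh10, Fhod1 and Pfn2), against 4.99% of all genes, and all above for 0, against 4.26% of all genes. Of the 45 listed genes above the median gene level, 4 were lower at an unadjusted p under 0.05, where 3.25% of all genes above that level were, and 5 had all MKO arrays below all WT arrays, where 6.35% did. With 3 animals a group, 0.1 is the smallest two-sided p of an exact permutation test.

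The differences of the list were small and mostly below 0. Of the 48 genes, 41 had a log2 difference (MKO minus WT) below 0, which is 85.4%, where 53.4% of all genes and 61.6% of the genes above the median level did so. The median difference was −0.12 over the list, −0.01 over all genes and −0.04 over genes above the median level, and 45 of the 48 lay above that level. The mean of the 48 genes, each taken relative to its WT mean, was −0.21, −0.08 and −0.07 on MKO replicates 1, 2 and 3, and 0.00, 0.05 and −0.05 on WT replicates 1, 2 and 3. MKO replicate 1 was the lowest array and held the lowest value for 24 of the 48 genes (50%), while MKO replicates 2 and 3 lay close to WT replicate 3. It held the lowest value for 24.0% of all genes and 37.6% of the genes above the median level. The mean of the genes above the median level was also lowest on MKO replicate 1, at −0.11. After each array was centred on its median the groups overlapped, with the mean of the 48 genes at −0.24, −0.03 and −0.01 in MKO and 0.00, 0.08 and −0.09 in WT. Without MKO replicate 1, 31 of the 48 genes had a difference below 0 and the median was −0.06. In that fit 64.6% of the list and 50.7% of genes above the median level were below 0.

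**Figure D1:**
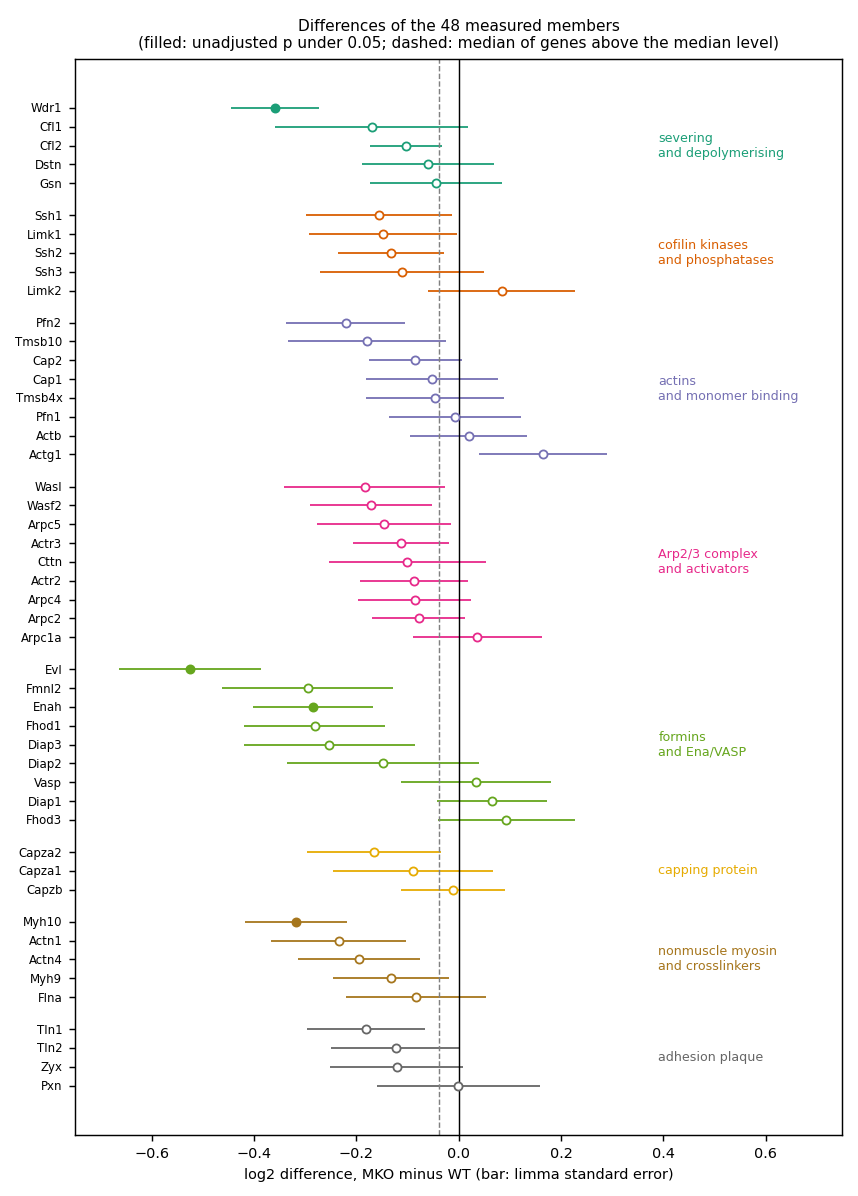
Log2 difference, MKO minus WT, of each of the 48 measured genes with its limma standard error, grouped by role, 3 animals a group. Filled points had an unadjusted p under 0.05 and the dashed line marks the median of genes above the median level; 41 of the 48 points lie left of 0.

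As a check of the genotype, Gna13 probe set 17257825 was 3.43, 4.25 and 4.33 in MKO and 5.48, 6.23 and 6.16 in WT, so that the groups did not overlap. Its log2 difference was −1.95 (SE 0.40). Probe sets 17257824, 17257828 and 17257829 of the same gene lay higher in every MKO array than in every WT array, by 0.65 (SE 0.19), 0.51 (SE 0.13) and 0.67 (SE 0.13), and the labels and annotation do not name the exon each one reads. The remaining Gna13 probe sets overlapped between the groups. They were 17257823 at −0.37 (SE 0.32), 17257826 at 0.55 (SE 0.52) and 17257827 at 0.23 (SE 0.19). Of 6 slow fibre markers, 3 had a difference below 0, and Myh7, the slow myosin heavy chain, lay between 10.92 and 10.93 in MKO and between 10.90 and 11.21 in WT. Myh2, a fast myosin, lay between 11.40 and 11.71 in MKO and between 11.57 and 11.665 in WT. The fast myosin Myh4 spread widely, at 5.11, 7.94 and 11.51 in MKO and 10.89, 9.48 and 11.72 in WT.

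Among the genes that cut and dismantle filaments, Wdr1 stood lowest relative to WT. It encodes the actin-interacting protein that works with cofilin to take filaments apart. Its log2 level was 9.02, 9.12 and 9.02 in MKO and 9.28, 9.47 and 9.50 in WT. The groups did not overlap, the MKO arrays lay close together, and WT replicate 1 was the lowest of its group. The means were 9.05 ± 0.06 in MKO and 9.41 ± 0.12 in WT (SD), a difference of −0.36 (SE 0.09) or 1.28-fold lower, with an unadjusted limma p of 0.0011 and an adjusted p of 0.9504. All 15 Wdr1 probe sets had a difference below 0, between −0.56 and −0.15, and 8 of them had no overlap between the groups. At an unadjusted p under 0.05, 9 of the 15 were lower. Over all 805 probe sets of the list, 521 had a difference below 0 (64.7%), where 51.3% of all probe sets did. Among the 805, 58 were lower and 7 higher at an unadjusted p under 0.05, where 2.8% of all probe sets were lower and 2.2% higher. The groups did not overlap for 78 with MKO below WT and 19 with MKO above WT, where 5.05% and 4.81% of all probe sets did so. Probe sets of 1 gene share their RNA and are not independent. None of the 805 had an adjusted p under 0.05, as 0.0% of all probe sets did.

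**Figure D2:**
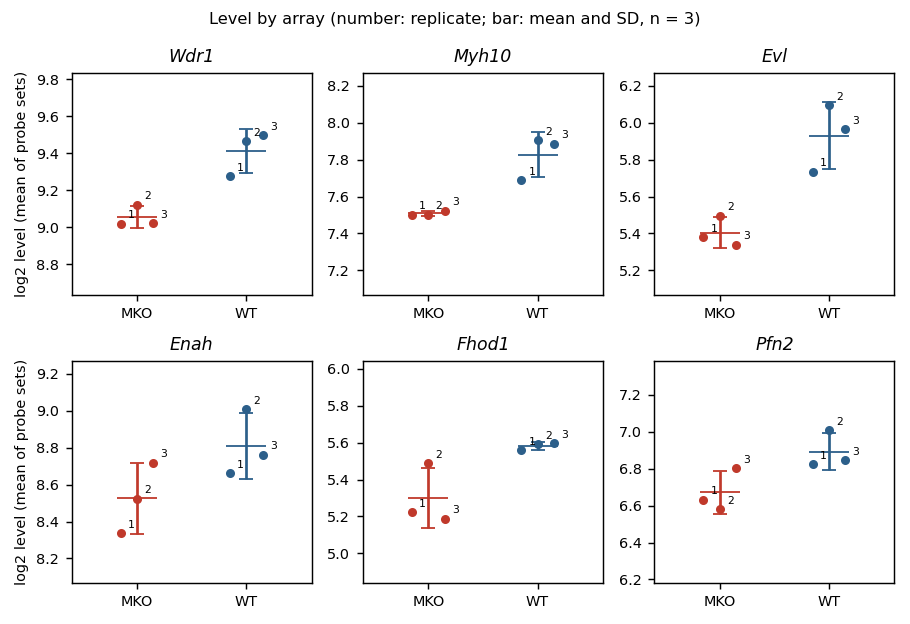
Log2 level by array for the 5 genes whose groups did not overlap and for Enah, with replicate numbers, group means and SD (n = 3 each, MKO left, WT right; every panel spans 1.2 log2 units). All MKO points lie below all WT points for Wdr1, Myh10, Evl, Fhod1 and Pfn2, and for Enah MKO replicate 3 at 8.72 lies above WT replicate 1 at 8.66.

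Promoter sequences of Wdr1 and Myh10, which kept an unadjusted p under 0.05 in all 15 alternative fits, and of Actg1, which held the motif searched for, are shown because actin cytoskeleton genes are classic targets of serum response factor, whose coactivator MRTF is held by free actin monomers. Its site, the CArG box, is a pair of C, then 6 letters that are A or T, then a pair of G, and it reads alike on both strands. The 250 bases before each gene's start were searched in RefSeq sequence of GRCm38.p6, where 42 of the 48 genes had an entry. Capitals mark the CArG box in Actg1 and, in Wdr1, a stretch that differs from the box in 1 of its 4 outer letters. Myh10 held neither in this window. The regions are chr5:38561700-38561949 on the minus strand for Wdr1, chr11:68691665-68691914 on the plus strand for Myh10 and chr11:120348496-120348745 on the minus strand for Actg1.
Wdr1: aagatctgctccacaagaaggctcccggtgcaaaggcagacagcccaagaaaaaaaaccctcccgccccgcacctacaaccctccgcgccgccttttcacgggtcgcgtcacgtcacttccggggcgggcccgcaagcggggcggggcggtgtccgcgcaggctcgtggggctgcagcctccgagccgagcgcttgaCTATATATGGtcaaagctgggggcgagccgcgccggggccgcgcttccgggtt
Myh10: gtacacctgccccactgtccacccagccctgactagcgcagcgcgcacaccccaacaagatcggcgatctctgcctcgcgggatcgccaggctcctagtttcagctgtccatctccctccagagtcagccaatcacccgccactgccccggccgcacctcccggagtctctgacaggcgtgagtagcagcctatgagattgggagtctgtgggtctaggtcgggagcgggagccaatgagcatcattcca
Actg1: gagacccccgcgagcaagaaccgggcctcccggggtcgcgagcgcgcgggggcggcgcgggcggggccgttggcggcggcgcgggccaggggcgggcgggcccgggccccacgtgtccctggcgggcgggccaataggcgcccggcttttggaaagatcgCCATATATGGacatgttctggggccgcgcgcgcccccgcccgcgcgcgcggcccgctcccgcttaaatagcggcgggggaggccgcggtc

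The exact box was found for Actg1, 90 bases before the start, and for Arpc4, 250 bases before it. These are 2 of 42 genes (4.76%), against 1.62% of all 27025 genes in the table. A box with 1 outer letter changed was found for Wdr1, 53 bases before the start, and for Limk2, Cfl1 and Flna, which is 9.52% of the 42 genes against 12.8% of all. Set beside the RNA values, Actg1 had a difference of 0.17 (SE 0.13) and Arpc4 of −0.09 (SE 0.11), and neither passed the test.

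No gene of the filament-severing proteins that Wdr1 assists passed the test, and whether any of them differed less than Wdr1 was not tested. Cfl2, the muscle form of cofilin, was 10.62, 10.53 and 10.70 in MKO and 10.74, 10.64 and 10.79 in WT, a difference of −0.10 (SE 0.07, adjusted p = 0.9997). Its groups overlapped, with MKO replicate 3 above WT replicate 2, and all 5 of its probe sets differed by −0.16 to −0.06. Dstn, the related depolymerising factor destrin, was 6.47, 6.58 and 6.35 in MKO and 6.61, 6.65 and 6.32 in WT, and overlapped. Cfl1, the nonmuscle cofilin, rested on a single dim probe set at 3.01, 2.71 and 2.47 in MKO and 3.03, 2.75 and 2.92 in WT. That probe set stood at the 13.8th percentile of gene levels, which limits what the Cfl1 value can show. Gsn, the calcium-dependent severing protein gelsolin, ranged from 8.25 to 8.48 in MKO and from 8.11 to 8.65 in WT.

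The enzymes that switch cofilin off and on, LIM kinases and slingshot phosphatases, overlapped between the groups. Ssh2 was 7.74, 7.82 and 8.05 in MKO and 8.002, 7.96 and 8.04 in WT, with MKO replicates 1 and 2 below all WT arrays and MKO replicate 3 above them (−0.13, SE 0.10). Ssh1 was 5.28, 5.34 and 5.44 in MKO and 5.42, 5.73 and 5.39 in WT. Ssh3 was 4.70, 5.09 and 5.08 in MKO and 5.24, 5.03 and 4.93 in WT. Both phosphatase genes overlapped between the groups, as did the 2 kinase genes. Limk1 was 5.33, 5.19 and 5.15 in MKO and 5.27, 5.57 and 5.28 in WT (−0.15, SE 0.14), and Limk2 had a difference of 0.08 (SE 0.14).

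Neither nonmuscle actin gene passed the test. Actb, β-actin, ranged from 7.77 to 8.17 in MKO and from 7.88 to 8.05 in WT, with a difference of 0.02 (SE 0.11). Its 1 dim probe set differed by 0.75. The other 4 Actb probe sets, all above the median level of probe sets, differed by −0.25 to −0.05, and the gene value was −0.22 for the median of its probe sets. Actg1, γ-actin, was 6.08, 6.15 and 6.28 in MKO and 5.92, 6.12 and 5.97 in WT, the largest positive difference on the list at 0.17 (SE 0.13, adjusted p = 0.9997). Only MKO replicate 1 lay inside the WT range, and 3 of the 6 Actg1 probe sets were higher and 3 lower. The actin genes have near-identical coding sequences and many processed pseudogenes, so array probes may not keep them apart.

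Of the proteins that hold and recharge actin monomers, Pfn2 had non-overlapping groups. It encodes a profilin and was 6.63, 6.58 and 6.80 in MKO and 6.82, 7.01 and 6.85 in WT, a difference of −0.22 (SE 0.12, adjusted p = 0.9997). The gap between the highest MKO array and the lowest WT array was small. The difference was −0.04 with the median of the probe sets and −0.25 from probe sets above the median level alone. Pfn1, the widely expressed profilin, differed by −0.01 (SE 0.13). Tmsb10, a thymosin that sequesters monomers, was 4.84, 4.92 and 4.59 in MKO and 5.12, 4.90 and 4.87 in WT, and Tmsb4x differed by −0.05 (SE 0.13). Of 7 Tmsb4x probe sets 4 lay below 0, and the 3 above the median level of probe sets differed by −0.31 to −0.26. The cyclase-associated proteins, which free monomers from cofilin, overlapped between groups. Cap2, the form known from striated muscle, was 9.46, 9.67 and 9.77 in MKO and 9.80, 9.73 and 9.62 in WT, and Cap1 differed by −0.05 (SE 0.13).

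Genes of the Arp2/3 complex, which starts branched filaments, and of its activators showed small differences, 8 of 9 below 0 with a median of −0.10. Actr3 was 8.03, 8.15 and 8.24 in MKO and 8.21, 8.33 and 8.21 in WT (−0.11, SE 0.09), with MKO replicate 3 inside the WT range. Arpc5 was 5.33, 5.50 and 5.36 in MKO and 5.54, 5.60 and 5.49 in WT, where MKO replicate 2 lay just above WT replicate 3. Arpc2, Actr2, Arpc4 and Arpc1a, further subunits of the complex, differed by −0.08, −0.09, −0.09 and 0.04, each less than its SE. Among the activators, Wasf2 (WAVE2) was 6.40, 6.20 and 6.30 in MKO and 6.46, 6.57 and 6.38 in WT. Its difference was −0.17 (SE 0.12), and MKO replicate 1 overlapped WT. Wasl, the neuronal-type WASP found in most tissues, was 5.96, 6.33 and 6.57 in MKO and 6.62, 6.46 and 6.33 in WT. Its probe sets disagreed, from −1.16 (17465213) to 1.17 (17465221), and the gene value of −0.18 (SE 0.16) turned to 0.20 with their median. Cttn, cortactin, which stabilises branches, differed by −0.10 (SE 0.15).

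Evl, one of 3 Ena/VASP genes, whose proteins lengthen filaments at their growing ends, had the largest difference on the list. It was 5.38, 5.50 and 5.34 in MKO and 5.73, 6.09 and 5.96 in WT, with all MKO arrays below all WT arrays. The difference was −0.53 (SE 0.14), or 1.44-fold lower, with an unadjusted limma p of 0.00232 and an adjusted p of 0.9997. All 14 Evl probe sets lay below 0, but unevenly. Dim probe sets carried most of it: 17278595 was 2.96, 3.51 and 3.74 in MKO and 4.71, 5.29 and 5.34 in WT, a difference of −1.71 (SE 0.41). The 9 Evl probe sets above the median level of probe sets differed by −0.50 to −0.05, and a gene value from these alone was −0.23, with an unadjusted p of 0.0939.

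Enah, the Ena/VASP protein Mena, was 8.34, 8.52 and 8.72 in MKO and 8.66, 9.01 and 8.76 in WT. The groups overlapped through MKO replicate 3. The difference was −0.28 (SE 0.12), with an unadjusted limma p of 0.0302 and an adjusted p of 0.9997. It was even across the probe sets, as all 16 of Enah lay below 0, from −0.47 to −0.16. Without MKO replicate 1 the difference was −0.19, with an unadjusted limma p of 0.116. Without WT replicate 2 it was also −0.19, with an unadjusted limma p of 0.156. Vasp, the third gene of the family, ranged from 5.52 to 5.58 in MKO and from 5.26 to 5.69 in WT, a difference of 0.03 (SE 0.15). Whether the Ena/VASP genes differ from each other in response was not tested.

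**Figure D3:**
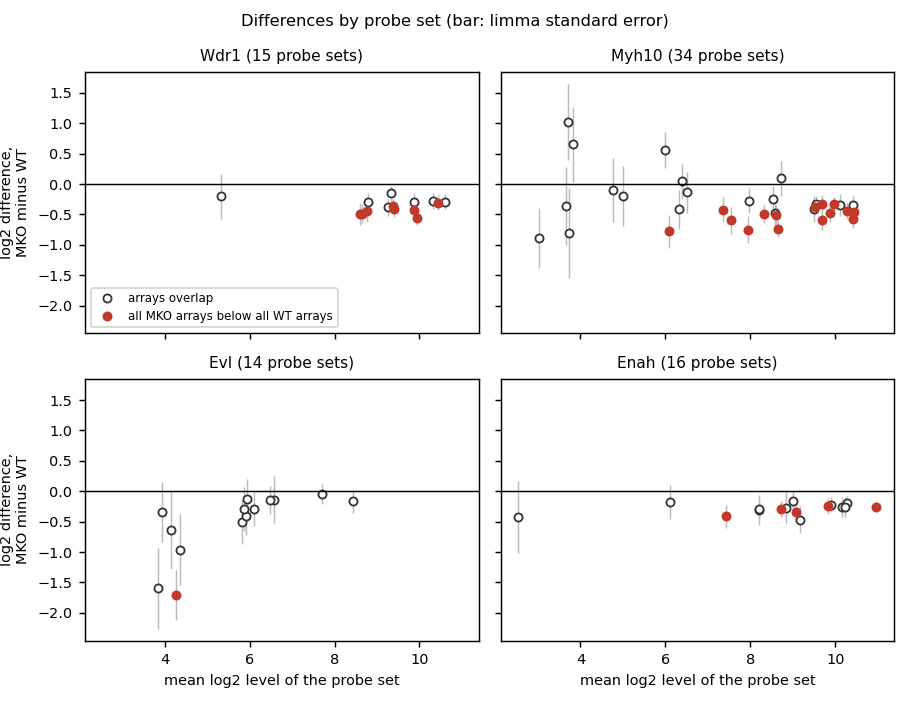
Log2 difference, MKO minus WT, of each probe set of Wdr1, Myh10, Evl and Enah against its mean log2 level, with limma standard errors. Red points are probe sets with all 3 MKO arrays below all 3 WT arrays (8 of 15 for Wdr1, 15 of 34 for Myh10, 1 of 14 for Evl and 5 of 16 for Enah), and the largest differences of Evl stand at its dimmest probe sets.

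Formins start and lengthen unbranched filaments, and their differences lay on both sides of 0. Fhod1, a formin linked to stress fibres, was 5.22, 5.49 and 5.19 in MKO and 5.56, 5.59 and 5.60 in WT, without overlap, at −0.28 (SE 0.14, adjusted p = 0.9997). The WT arrays of Fhod1 were closely grouped, and MKO replicate 2 stood near them. Fmnl2 was 3.91, 4.02 and 4.25 in MKO and 4.31, 4.53 and 4.22 in WT (−0.30, SE 0.17), below the median gene level and with probe sets between −1.92 and 1.20. The Diaphanous formins, direct targets of RhoA, differed by 0.07 (SE 0.11) for Diap1, −0.15 (SE 0.19) for Diap2 and −0.25 (SE 0.17) for Diap3. Fhod3, a formin of the cardiac and skeletal sarcomere, was higher by 0.09 (SE 0.13). The groups overlapped for the Diaphanous genes and for Fhod3.

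Capping protein closes the growing end of filaments and, in muscle, anchors them at the Z-disc. Capza2 was 7.12, 7.13 and 7.58 in MKO and 7.37, 7.47 and 7.49 in WT, with MKO replicate 3 the highest of all arrays (−0.16, SE 0.13). Capza1 was 5.50, 5.74 and 5.81 in MKO and 5.91, 5.94 and 5.48 in WT. Capzb was 8.58, 8.87 and 8.62 in MKO and 8.82, 8.60 and 8.68 in WT, a difference of −0.01 (SE 0.10). None of the 3 genes separated the groups.

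Myh10, the heavy chain of nonmuscle myosin IIB, had a difference below 0 in most of its probe sets. It was 7.50, 7.50 and 7.52 in MKO and 7.69, 7.91 and 7.89 in WT. All MKO arrays lay below all WT arrays and close to each other. The means were 7.51 ± 0.01 in MKO and 7.83 ± 0.12 in WT (SD), a difference of −0.32 (SE 0.10) or 1.25-fold lower, with an unadjusted limma p of 0.0076 and an adjusted p of 0.9997. Of its 34 probe sets 29 lay below 0, 15 had no overlap between the groups with MKO below WT, and 16 were lower at an unadjusted p under 0.05. The lowest p among all probe sets of the list was that of Myh10 probe set 17251393, at 8.39, 8.15 and 8.29 in MKO and 8.87, 9.08 and 9.09 in WT. The 34 Myh10 probe sets ranged from −0.88 to 1.02. Of the 28 above the median level of probe sets, 25 lay below 0, and these 28 ranged from −0.78 to 0.56.

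Its relative Myh9, the heavy chain of nonmuscle myosin IIA, was 7.55, 7.69 and 7.73 in MKO and 7.73, 7.9997 and 7.64 in WT, with overlap. The Myh9 difference was −0.13 (SE 0.11, adjusted p = 0.9997), and of its 17 probe sets 13 lay below 0. Whether the difference of Myh10 exceeds that of Myh9 was not tested. The nonmuscle α-actinins, which bundle filaments, were lower in part of the MKO arrays. Actn1 was 5.73, 5.76 and 6.06 in MKO and 6.14, 6.09 and 6.02 in WT (−0.23, SE 0.13), and its value turned to 0.20 with the median of the probe sets. Actn4 was 7.26, 7.68 and 7.42 in MKO and 7.66, 7.56 and 7.71 in WT (−0.19, SE 0.12). Flna, the crosslinker filamin A, differed by −0.08 (SE 0.14).

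Adhesion plaque genes, whose products tie filaments to integrins, did not separate the groups. Tln1, talin 1, was 7.15, 7.52 and 7.28 in MKO and 7.52, 7.55 and 7.42 in WT (−0.18, SE 0.12), and 36 of its 47 probe sets lay below 0. The Tln1 probe sets ranged from −1.26 to 1.39, and 4 of the 47 had all MKO arrays below all WT arrays, where 5.05% of all probe sets did. Tln2, the talin of striated muscle, was 6.63, 7.01 and 7.01 in MKO and 7.03, 7.06 and 6.93 in WT, where MKO replicate 1 stood apart from all other arrays. Zyx, the focal adhesion protein zyxin, was 6.80, 6.59 and 6.68 in MKO and 6.74, 6.65 and 7.05 in WT, and the adaptor gene Pxn (paxillin) was 6.01, 5.75 and 6.11 in MKO and 6.21, 5.67 and 5.98 in WT. Both overlapped.

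Further genes of the same machinery that were not on the list were also measured, and 0 of 80 had an adjusted p under 0.05. Of the 80, 56 had a difference below 0 (70.0%), where 53.4% of all genes and 61.6% of genes above the median level did. All MKO arrays lay below all WT arrays for 7 of the 80 and above them for 2, where 4.99% and 4.26% of all genes did so. At an unadjusted p under 0.05, 3 were lower and 0 higher, near the 2.41% of all genes that were lower by that rule. The 3 were Myl12a, a regulatory light chain of nonmuscle myosin (−0.36, SE 0.14), Wipf2, a partner of WASP proteins (−0.33, SE 0.15), and Vcl, vinculin, which binds talin and actin (−0.29, SE 0.12). Myl12a was 5.63, 5.78 and 6.04 in MKO and 6.05, 6.25 and 6.23 in WT, with MKO replicate 3 just below WT replicate 1. Vcl was 7.61, 7.76 and 7.95 in MKO and 7.96, 8.29 and 7.95 in WT, with the highest MKO array only just below the lowest WT array.
Other genes with the smallest p of their lists were Nckap1, a subunit of the WAVE complex (−0.24, SE 0.12), Lpp, a relative of zyxin (−0.28, SE 0.14), Msn, the membrane linker moesin (−0.20, SE 0.11), Tesk1, another cofilin kinase (−0.17, SE 0.10), and the formin gene Daam1 (−0.26, SE 0.16). Fmn2 (0.28, SE 0.17) and Capza3 (0.35, SE 0.18) were dim and higher, each with all MKO arrays above all WT arrays. No muscle actin gene passed the test, with Actc1 at −0.07 (SE 0.15) and Actg2 at 0.18 (SE 0.19).

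Many genes on the list are also expressed in cells other than muscle fibres, and markers of several such cells were lower on some MKO arrays. Relative to the WT mean, 7 fibroblast markers averaged −0.55, 0.02 and −0.19 on MKO replicates 1, 2 and 3 and 0.15, 0.04 and −0.19 on WT replicates 1, 2 and 3. Of the fibroblast markers 6 of 7 had a difference below 0, with Pdgfra at −0.34 (SE 0.14). The fibroblast markers ranged from −0.39 for Lum to −0.02 for Dcn and 0.01 for Dpt. All 7 endothelial markers were below 0, averaging −0.36, −0.26 and −0.04 on MKO replicates and 0.02, 0.19 and −0.21 on WT replicates. Cldn5, the endothelial tight junction gene, had the largest of these differences at −0.73 (SE 0.15). The other endothelial markers differed less, from −0.24 for Tek to −0.07 for Kdr. The 7 macrophage markers averaged −0.34, −0.14 and −0.11 on MKO replicates and 0.15, −0.04 and −0.11 on WT replicates. Of these 6 of 7 were below 0, with Cd68 far from the rest at −0.82 (SE 0.26). The other macrophage markers differed by −0.18 (Csf1r) to 0.07 (Cd163).
Fast fibre markers averaged −1.19, −0.35 and 0.19 on MKO replicates and −0.01, −0.19 and 0.20 on WT replicates. The low mean on MKO replicate 1 came mainly from Myh4 and Pvalb, at 5.11 and 5.64 there. Myh4 differed by −2.51 (SE 1.11) and Pvalb by −0.64 (SE 0.45). The other fast fibre markers differed little, with Myh2 at −0.09, Atp2a1 at −0.02, Tnnt3 at −0.004, Tnni2 at 0.03 and Myh1 at 0.08. Of the remaining lists, 5 of 6 tenocyte, 4 of 7 smooth muscle, 3 of 5 adipocyte, 3 of 5 satellite cell, 1 of 5 lymphocyte and 1 of 4 Schwann cell markers had a difference below 0. MKO replicate 1 was the lowest array for the fibroblast, endothelial, macrophage and fast fibre markers as well as for the actin list. It was also lowest for the smooth muscle (−0.18) and satellite cell (−0.12) markers. For the lymphocyte and Schwann cell markers it was the highest array, at 0.17 and 0.14. For the tenocyte, adipocyte and slow fibre markers the lowest arrays were WT replicate 3 (−0.28), MKO replicate 3 (−0.56) and WT replicate 2 (−0.13). The part of other cell types in the differences of Wdr1, Myh10, Evl, Enah and the list as a whole was not tested. Leaving out an array does not test it. Without MKO replicate 1, Wdr1 stood at −0.34, Myh10 at −0.31 and Evl at −0.51, each with an unadjusted p under 0.05, while Enah stood at −0.19 and no longer had one.

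**Figure D4:**
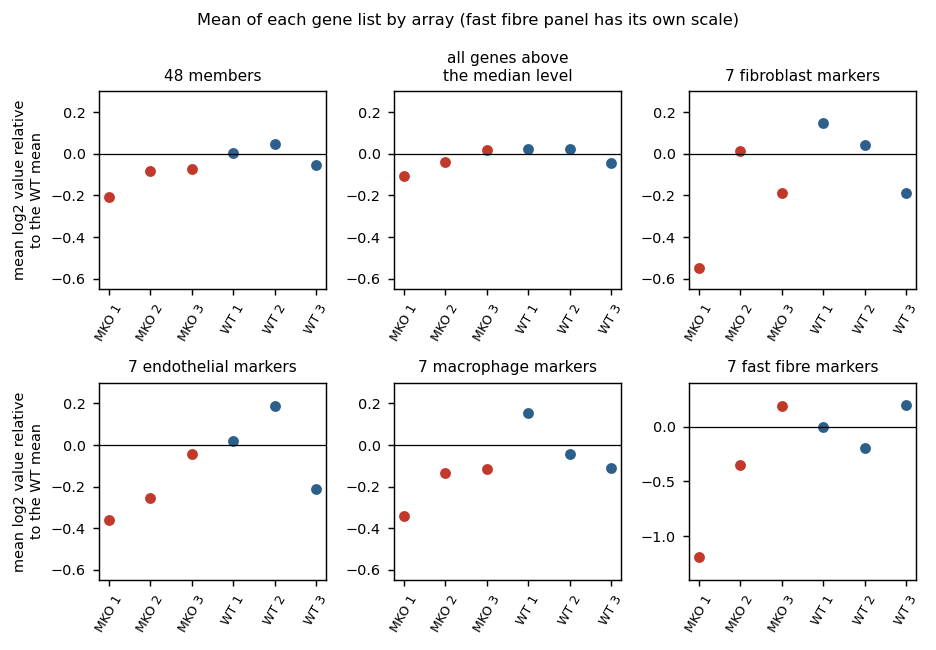
Mean log2 value of each gene list relative to the WT mean of its genes, by array, MKO in red and WT in blue; the fast fibre panel has a wider axis. MKO replicate 1 is the lowest array in each of the 6 panels, at −0.21 for the 48 genes and −1.19 for the fast fibre markers. The low fast fibre mean there came mainly from Myh4 and Pvalb. Marker lists in which another array was lowest are not drawn.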

How the data were processed

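RNA of 6 soleus samples, 3 MKO and 3 WT animals that the labels call biological replicates, was measured on Affymetrix Mouse Gene 2.0 ST arrays. The deposited table holds log2 intensities. The authors obtained them by RMA (background correction, normalization between arrays, summary of probes) with Affymetrix Expression Console, per the submitters' processing notes, which name no version or build. The description of the design speaks of gene-level RMA, but most genes have several rows in the table. Each row was therefore treated as a probe set. The table held 269751 rows, of which 233753 had exactly 1 gene symbol in the platform annotation and were averaged per gene. Two-sided limma tests (version 3.58.1, R 4.3.3, eBayes with a variance trend) of MKO minus WT ran over all 23152 genes, and separately over all rows. P-values were adjusted by Benjamini-Hochberg at a threshold of 0.05. All p-values come from these fits. The study's local pooled error test was not run, because its package was not installed. The number of arrays limits the precision, and levels were not compared between genes. The fit was tested on simulated data with changes added to 50 genes of each size. At an adjusted p under 0.05 it recovered 1 of 50 at a log2 size of 0.5 and 32 of 50 at 1. It recovered 41 of 50 at 1.5 and 46 of 50 at 2, with 6 false calls in all. Differences of the size seen on the list would thus seldom pass the threshold.

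The genes, lists and tests were chosen with earlier results of these data known. Values by array are given for the 4 genes of each role with the smallest p (3 for capping protein) and for genes without overlap between groups, and for others as ranges or differences. Of 84 further cytoskeleton genes 80 were measured, with the 2 of smallest p per list named, and 66 genes marked 11 other cell or fibre types. Same-numbered replicates did not deviate together (r = −0.09, 0.09 and −0.24 across genes), so the numbers were not taken as pairs. Alternatives were limma without the trend, robust, with array weights or with a replicate block, quantile normalization, median centring, genes above the median level, the median of probe sets and each array left out. Gene means from bright probe sets alone were an alternative chosen after seeing the data. Figures were drawn with Python 3.11.15.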

Additional observations from a re-analysis of the deposited data

How the results depend on the processing

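Under 15 alternatives 0 of the listed genes had an adjusted p under 0.05 by limma, and the lowest was 0.465. Wdr1 (−0.43 to −0.30) and Myh10 (−0.42 to −0.27) kept an unadjusted p under 0.05 in all 15, Evl (−0.62 to −0.23) in 13 and Enah (−0.38 to −0.19) in 9. Of the listed genes 2 were lower at that level with the median of probe sets, where 2.49% of all genes were. From probe sets above the median level alone 5 were (Enah, Myh10, Pfn2, Tmsb4x and Wdr1), where 2.62% of all genes in that fit were. The count was 3 to 8 with an array left out, where 1.70% to 4.21% of all genes were lower at that level. Both the 8 and the 4.21% came without MKO replicate 3. With an array left out, 31 to 42 genes lay below 0 and the median was −0.16 to −0.06. In the same fits 50.7% to 66.8% of genes above the median level lay below 0, with a median of −0.071 to −0.0021. The 31, the −0.06, the 50.7% and the −0.0021 came without MKO replicate 1. Over all genes, 0 passed the adjusted threshold, 1 passed with array weights, and 0 to 1 with an array left out (1 each without WT replicates 1 and 3), while 558 genes were lower and 444 higher at an unadjusted p under 0.05. Array weights gave 1000 lower and 805 higher. Median centring gave 354 lower and 545 higher, leaving out MKO replicate 3 gave 975 lower, quantile normalization 575 lower and 583 higher, and genes above the median level 371 lower and 129 higher. The median of all genes was −0.01, 0.01 after median centring and 0.00 after quantile normalization, and the listed genes' median was −0.09 and −0.08 after these. With the replicate block, 41 genes lay below 0 and 4 were lower at an unadjusted p under 0.05, and no call changed. The cause of the sign changes that follow was not tested. Of the 48 genes, 27 kept their sign throughout. With array weights Capzb was 0.018, Pfn1 0.054 and Actc1 0.070. Quantile normalization gave Pxn 0.040, Capzb 0.027, Pfn1 0.034 and Gsn 0.0026, and median centring Pxn 0.024, Capzb 0.013 and Pfn1 0.017. The median of probe sets gave Wasl 0.20, Tln2 0.054, Zyx 0.13, Ssh3 0.068, Actn1 0.20, Tmsb4x 0.068, Actb −0.22, Diap2 0.040, Diap1 −0.11 and Vasp −0.16. Probe sets above the median level gave Limk1 0.015, Cttn 0.034, Actb −0.16 and Vasp −0.079. With an array left out, values crossed 0 for Cap2 (−0.15 to 0.0037), Tln2 (−0.19 to 0.0024), Capza1 (−0.24 to 0.00088), Capzb (−0.10 to 0.050), Ssh3 (−0.18 to 0.017), Cttn (−0.21 to 0.025), Cap1 (−0.17 to 0.031), Tmsb4x (−0.13 to 0.056), Pfn1 (−0.10 to 0.14), Diap2 (−0.28 to 0.073), Actg2 (−0.0039 to 0.34), Pxn (−0.14 to 0.13), Arpc1a (−0.025 to 0.13), Actb (−0.081 to 0.12), Diap1 (−0.013 to 0.16), Gsn (−0.20 to 0.069), Dstn (−0.16 to 0.0016), Vasp (−0.10 to 0.11) and Actc1 (−0.20 to 0.10).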
